A study of Mus musculus with 50 samples.

Results

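Hdc encodes histidine decarboxylase, the enzyme that makes histamine from histidine, and it was examined here together with 4 genes that mark the cells best known for storing histamine. Mcpt8 encodes a serine protease of basophils, Cpa3 a carboxypeptidase stored in the granules of mast cells and basophils, and Fcer1a and Ms4a2 encode the alpha and beta chains of the high-affinity IgE receptor. The 5 genes were chosen by name from the gene annotation of the array's probes. They were proposed with results of these data in view, and which values led to the proposal is not recorded; the aim was to ask whether Hdc moved together with the cell markers. All 5 have a probe, 6 probes in all, but the probes of Fcer1a and Ms4a2 carried no value on any of the 50 arrays. The results therefore rest on 3 genes and 4 probes, out of 15312 genes with a value in the series.

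The samples were spleens of female mice, each compared on a two-colour array with a common reference RNA pooled from several mouse cell types. BALB/c wild-type mice were left untreated (6 arrays) or injected intraperitoneally with 400 µg of an equimolar mixture of CpG ODN 1555 and 1466, oligodeoxynucleotides that activate the DNA sensor TLR9. Their spleens were taken after 0.5, 1, 3, 9, 24 or 72 h (4 arrays each), and 4 further BALB/c spleens were taken 3 h after control ODN 1612 and 1471. C57BL/6 control mice and C57BL/6 mice with a TNF knock-out were untreated or received CpG ODN for 3 h (4 arrays each). Neither the dose in C57BL/6 mice nor the animals' age is stated in the labels. The titles of the C57BL/6 CpG arrays of both genotypes name the treatment, but their sample source field reads untreated; grouping followed the titles.

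Histamine is made in a single step by Hdc, packed into granules by the transporter Slc18a2 in mast cells and basophils, sensed by the receptors Hrh1 to Hrh4, and inactivated by the methyltransferase Hnmt or the oxidase Aoc1. Basophils and mast cells release their store when antigen cross-links IgE on the receptor formed by Fcer1a, Ms4a2 and the signalling chain Fcer1g. Hdc can also be switched on in other haematopoietic cells, among them neutrophils and macrophages, which keep little histamine in store. In whole spleen, fewer cells of a type and less RNA per cell cannot be told apart.

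The injected oligonucleotides are shown because they define the comparison, with every CG dinucleotide in capitals.
CpG ODN 1555: gctagaCGttagCGt
CpG ODN 1466: tcaaCGttga
Control ODN 1612: gctagatgttagCGt
Control ODN 1471: tcaagcttga
One of the control oligonucleotides, 1612, keeps 1 of the 2 CG dinucleotides of 1555, and 1471 holds none.

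The 250 bases before the start of each measured gene are shown to set the enzyme's gene beside those of the markers. They come from RefSeq (build GRCm38.p6, all on the minus strand), with capitals marking matches on either strand to 5 short motifs: GATAA for GATA factors, GGGCGG for the GC box, TATAAA for the TATA box, TTCNNNGAA for STAT factors and a short form of the interferon-stimulated response element.
Hdc, chr2:126618679-126618928: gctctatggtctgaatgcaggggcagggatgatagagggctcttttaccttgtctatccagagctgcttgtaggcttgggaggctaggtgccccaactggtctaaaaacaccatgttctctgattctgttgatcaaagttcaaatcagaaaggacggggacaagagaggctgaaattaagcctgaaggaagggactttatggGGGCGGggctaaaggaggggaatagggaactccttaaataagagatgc
Mcpt8, chr14:56085198-56085447: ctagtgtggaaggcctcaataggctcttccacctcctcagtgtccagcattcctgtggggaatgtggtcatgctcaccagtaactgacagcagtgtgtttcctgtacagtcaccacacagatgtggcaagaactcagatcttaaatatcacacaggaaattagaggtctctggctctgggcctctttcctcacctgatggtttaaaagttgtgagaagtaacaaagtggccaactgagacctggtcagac
Cpa3, chr3:20242182-20242431: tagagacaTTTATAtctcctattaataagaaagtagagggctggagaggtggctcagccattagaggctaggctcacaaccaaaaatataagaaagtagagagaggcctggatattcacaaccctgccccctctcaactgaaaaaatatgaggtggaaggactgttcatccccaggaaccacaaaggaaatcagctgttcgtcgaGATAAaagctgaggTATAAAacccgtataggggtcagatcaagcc
The Hdc window held a single match, GGGCGG beginning 48 bases before the start, and 32.9% of 27025 mouse promoter windows hold that motif. In the Cpa3 window GATAA began 45 bases and TATAAA 31 and 242 bases before the start; 23.0% and 13.0% of windows hold these motifs. The Mcpt8 window held none of the 5. The STAT and interferon motifs, present in 7.18% and 3.04% of windows, were not found in these 3 windows.

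Each value below is the log2 ratio of spleen over reference RNA, centred on the median of its array, so that a difference of 1 is a 2-fold change in the ratio. Differences carry the standard error of a limma fit to all genes, and each limma adjusted p was corrected by Benjamini-Hochberg across every gene tested, 0.05 being the threshold. Hdc is described without p-values because it was proposed with results of these data in view, and its own response may have been among them. The arrays held 27619 to 30590 values each. Tnf, the targeted gene, lay between -0.61 and 0.09 in the 4 untreated TNF knock-out spleens and between -0.45 and 0.43 in the 4 given CpG ODN, against 0.58 to 0.78 and 3.16 to 4.59 in the control mice. Adjacent numbers in the array titles form 11 runs, the only batch information used here. The arrays of 9, 24 and 72 h and of the control ODN shared no run with untreated BALB/c arrays, so run and treatment cannot be told apart for them. The mean log2 ratio of the pancreas markers (15 of 18 measured) ranged from 0.35 to 5.87 among untreated BALB/c arrays and from 5.57 to 6.46 in the TNF knock-out CpG arrays; none of the 15 was called in a CpG comparison with untreated spleen, and their part in the results was not tested.

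Hdc was higher than in untreated spleen from 1 h after CpG ODN in BALB/c mice, was highest at 3 and 9 h, and was closer to the untreated level at 72 h. In the 6 untreated spleens the lowest value was 0.17, the median 0.46 and the highest 1.33. At 0.5 h the 4 spleens read -0.01, 0.17, 0.83 and 1.30, within the untreated range or close to it, and the mean differed by 0.04 ± 0.32 (SE). One hour after injection Hdc stood at 1.65, 2.44, 1.72 and 2.28, above all untreated spleens, a difference of 1.49 ± 0.32 or 2.81-fold.

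At 3 h the values were 3.09, 2.68, 3.41 and 3.64, the highest BALB/c mean, with a difference of 2.68 ± 0.32 or 6.39-fold. At 9 h they were 3.41, 3.11, 3.32 and 2.13, a difference of 2.46 ± 0.32 or 5.49-fold, and 3 of the 4 spleens lay inside the 3 h range. The 24 h spleens read 2.45, 1.77, 1.92 and 2.13, a difference of 1.54 ± 0.32 or 2.90-fold, close to the 1 h level. By 72 h the values were 1.39, 1.29, 1.81 and 1.51, with 1 of them under the highest untreated spleen and a difference of 0.97 ± 0.32. The 72 h group and the control ODN group lay in the same array run, and between those groups the difference was 0.32.

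Hdc overlapped with no untreated spleen at 1, 3, 9 and 24 h, a pattern shown by 5.29%, 7.59%, 4.56% and 6.20% of all genes measured at those times. Among 15264 genes ordered by their difference, Hdc was number 115 from the highest at 1 h, 73 at 3 h, 62 at 9 h, 120 at 24 h and 347 at 72 h. Within array run 1 the 1 h difference was 1.67. Within run 2 it was 0.66, against a single untreated spleen, replicate 2, which had the highest untreated Hdc value. The 3 h difference within run 2 was 2.19.

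**Figure D1:**
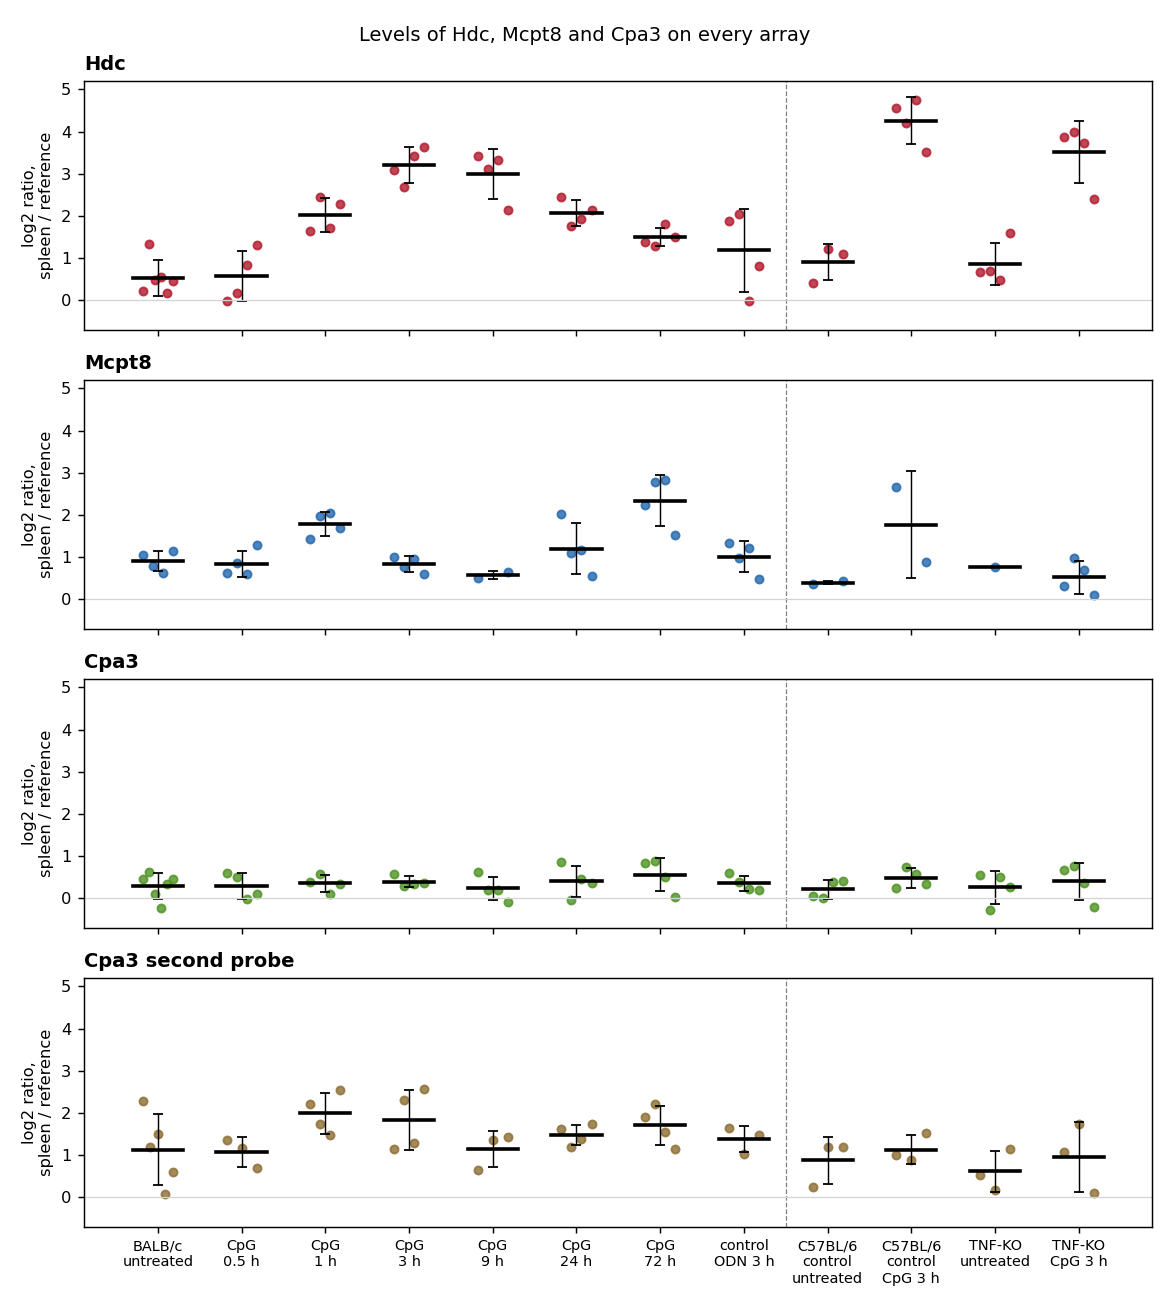
Log2 ratio of spleen over reference RNA (vertical axis) for Hdc, Mcpt8 and both Cpa3 probes on each array, by group (horizontal axis); points are arrays, horizontal bars the group mean and error bars the SD. Hdc peaks at 3 and 9 h in BALB/c spleen and is high after CpG ODN in both C57BL/6 genotypes. Mcpt8 has its highest mean, 2.34, at 72 h. Group means of Cpa3 lie between 0.21 and 0.56 on the probe with most values and between 0.61 and 1.99 on the second probe.

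The control ODN gave uneven Hdc values of 1.88, 2.05, -0.03 and 0.81. Of these, 2 lay above every untreated spleen, 1 inside the untreated range and 1 below it, and the mean difference from untreated was 0.65 ± 0.32. Spleens given CpG ODN for 3 h were all above those given control ODN, by 2.03 ± 0.35 or 4.08-fold, and 8.22% of all genes showed that separation. Without control ODN replicate 3 the difference between control ODN and untreated was 1.05, the highest of the leave-one-out values.

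In C57BL/6 control spleens Hdc read 0.41, 1.21 and 1.09 untreated, with no value for replicate 2, and 4.57, 4.21, 4.74 and 3.51 after CpG ODN for 3 h. The groups did not overlap, and the difference was 3.35 ± 0.38 or 10.2-fold. Hdc was number 7 from the highest among 14951 genes there, and 8.66% of genes had all CpG spleens above all untreated ones. Spleens of TNF knock-out mice read 0.68, 0.69, 0.47 and 1.60 untreated and 3.88, 4.00, 3.74 and 2.40 after CpG ODN, again without overlap. Their difference was 2.65 ± 0.35 or 6.26-fold, number 44 from the highest, and 6.12% of genes showed that separation.

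Untreated Hdc differed between the genotypes by -0.04 ± 0.38 (knock-out minus control). After CpG ODN the knock-out mean was lower by 0.75 ± 0.35, with overlapping groups, and the response to CpG ODN differed by -0.71 ± 0.52. Replicate 4 of the knock-out held both the highest untreated and the lowest CpG value of its genotype, and both arrays lay in run 11, where the difference was 0.81. In run 6 the knock-out difference was 3.40, and the difference between the responses there was 0.29, of opposite sign to that over all arrays. Without CpG replicate 4 the knock-out difference was 3.01, and without it the difference of responses was -0.34. Between strains, the 3 h response was larger in C57BL/6 control than in BALB/c mice by 0.68 ± 0.51, and untreated Hdc was higher by 0.37 ± 0.36 with overlapping groups.

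The order of the 12 group means of Hdc ran from C57BL/6 control CpG at 4.26 through knock-out CpG at 3.51, BALB/c 3 h at 3.21, 9 h at 2.99, 24 h at 2.07, 1 h at 2.02, 72 h at 1.50 and control ODN at 1.18. Below these came C57BL/6 control untreated at 0.90, knock-out untreated at 0.86, BALB/c 0.5 h at 0.57 and BALB/c untreated at 0.53. Every group overlapped with its neighbour in this order.

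Mcpt8, the basophil protease, followed another time course and had its highest level at 72 h. Its probe carried a value on 39 of the 50 arrays, and missing arrays were left out. Untreated BALB/c spleens read 1.05, 0.79, 0.63 and 1.15, with no value for replicates 5 and 6. At 72 h the spleens read 2.24, 2.78, 2.83 and 1.52, all above the untreated ones, and Mcpt8 rose by 1.44 ± 0.26 or 2.71-fold (limma adjusted p = 0.00081). At that time 10.6% of all genes were called and 6.47% were called higher, and 7.05% had all 72 h spleens above all untreated ones. Against the control ODN spleens of the same array run the 72 h difference was 1.33 (limma adjusted p = 0.036).

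At 3 h, when Hdc was highest in BALB/c spleen, Mcpt8 read 1.01, 0.76, 0.95 and 0.60, inside or just below its untreated range, with a difference of -0.08 ± 0.26 (limma adjusted p = 0.93). At 9 h only 2 spleens had a value, 0.51 and 0.65, and the difference was -0.32 ± 0.32 (limma adjusted p = 0.71). At 24 h the values were 2.01, 1.10, 1.16 and 0.54, straddling the untreated range, with a difference of 0.30 ± 0.26 (limma adjusted p = 0.53).

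One hour after CpG ODN Mcpt8 read 1.42, 1.97, 2.04 and 1.70. All 4 spleens lay above all measured untreated ones, a pattern shown by 5.29% of all genes. The difference of 0.88 ± 0.26 did not pass the threshold (limma adjusted p = 0.065). It passed with array weights (difference 0.97, limma adjusted p = 0.0033) and when only the groups compared were fitted (limma adjusted p = 0.022). At 0.5 h the values were 0.63, 0.86, 0.60 and 1.28 and the difference was -0.06 ± 0.26 (limma adjusted p = 0.93). Control ODN spleens read 1.34, 0.98, 1.21 and 0.49, a difference of 0.10 ± 0.26 (limma adjusted p = 0.85).

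In C57BL/6 mice the Mcpt8 probe had values on too few arrays to be tested within the strain. Control spleens read 0.36 and 0.42 untreated and 2.67 and 0.88 after CpG ODN. The knock-out had a single untreated value of 0.77 and CpG values of 0.32, 0.97, 0.70 and 0.09, which lay on both sides of it. The difference in 3 h response between C57BL/6 control and BALB/c mice was 1.46 ± 0.52 (limma adjusted p = 0.45). It passed the threshold without C57BL/6 control CpG replicate 3 (difference 2.35, limma adjusted p = 0.027), which leaves the array of 2.67 as the only CpG value.

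Cpa3, the granule carboxypeptidase, passed the test in no comparison. On the probe with values on all 50 arrays, untreated BALB/c spleens ranged from -0.23 to 0.63 with a median of 0.39. The 3 h spleens read 0.58, 0.28, 0.33 and 0.36, inside that range, a difference of 0.10 ± 0.19 (limma adjusted p = 0.85). The 72 h spleens read 0.83, 0.89, 0.50 and 0.02, with 2 above the untreated range, a difference of 0.27 ± 0.19 (limma adjusted p = 0.35); with array weights it was 0.55 (limma adjusted p = 0.0031). In C57BL/6 control mice CpG ODN gave 0.25, 0.75, 0.57 and 0.34 against 0.04, 0.00, 0.39 and 0.40 untreated, overlapping groups with a difference of 0.27 ± 0.23 (limma adjusted p = 0.54).

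A second Cpa3 probe, with 42 values, gave higher ratios and a wider spread. Untreated BALB/c spleens read 2.29, 1.20, 1.50, 0.08 and 0.60 on it, so that the lowest and highest untreated spleens spanned most of the other groups. Its largest differences were 0.86 ± 0.34 at 1 h (limma adjusted p = 0.20) and 0.70 ± 0.34 at 3 h (limma adjusted p = 0.26), and neither passed. The probes thus differed in level and in the size of their 1 h and 3 h differences, while neither was called.

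**Figure D2:**
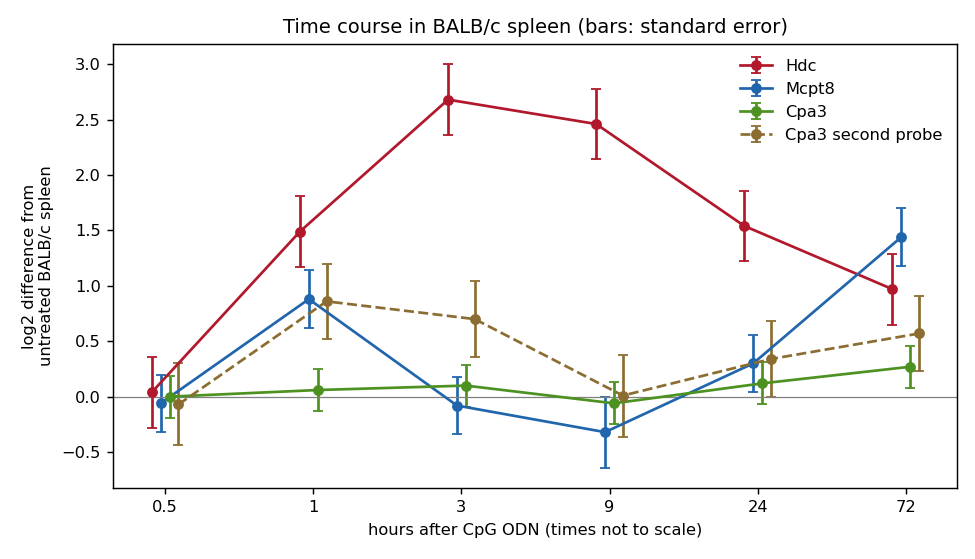
Difference in log2 ratio from untreated BALB/c spleen (vertical axis) against hours after CpG ODN (horizontal axis, not to scale) for Hdc, Mcpt8 and both Cpa3 probes; bars are standard errors of the limma fit. The Hdc curve is highest at 3 h (2.68) while Mcpt8 is at -0.08, and Mcpt8 is highest at 72 h (1.44) where Hdc is at 0.97.

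Whether Hdc moved with the markers beyond the group differences was asked over arrays, with each value taken as its deviation from the group mean. Hdc and Mcpt8 gave r = 0.153 and rho = 0.178 over 38 arrays (two-sided permutation p = 0.37 and 0.33, adjusted over the 2 markers 0.37 and 0.33). Without the 2 arrays farthest from the median Hdc deviation r was 0.147. It was 0.177 in BALB/c and 0.104 in C57BL/6 arrays, and 0.612, -0.322 and 0.0979 within array runs 1, 3 and 4, so that the sign was not the same in every run.

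For Cpa3 only the probe with values on all 50 arrays was used. Hdc and Cpa3 gave r = 0.327 and rho = 0.282 over 49 arrays (two-sided permutation p = 0.038 and 0.075, adjusted over the 2 markers 0.076 and 0.15). Neither passed after adjustment, and r was 0.23 without the 2 farthest arrays. Within BALB/c and C57BL/6 arrays r was 0.222 and 0.52, and within runs 1, 3 and 4 it was -0.543, 0.756 and 0.217. Across the 12 group means, which share the reference RNA and the array processing, r between Hdc and Mcpt8 was 0.132, between Hdc and Cpa3 0.439 and between Mcpt8 and Cpa3 0.788. The Mcpt8 mean rested on 1 array in untreated knock-out spleens and on 2 arrays each at 9 h and in both C57BL/6 control groups. The Cpa3 means spanned only 0.21 to 0.56.

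**Figure D3:**
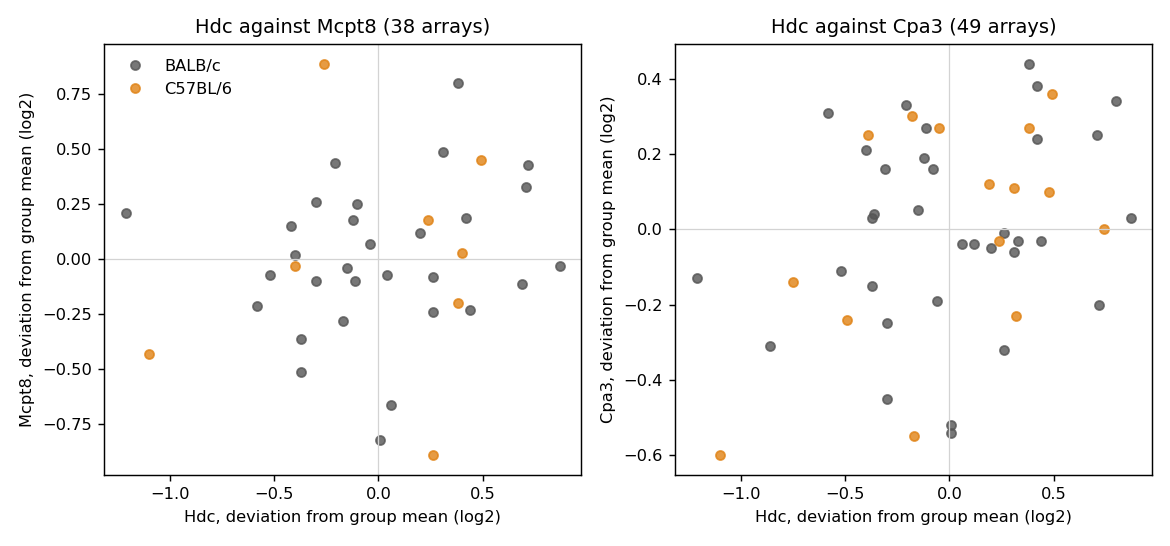
Deviation of Hdc from its group mean (horizontal axis, log2) against the deviation of Mcpt8 (left, 38 arrays) or Cpa3 (right, 49 arrays) on the same array; each point is an array, coloured by strain. The points scatter widely around a weak slope, with r = 0.153 for Mcpt8 and 0.327 for Cpa3.

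In the rest of the histamine pathway, the receptor Hrh4 was called higher at every BALB/c time from 1 to 72 h. Besides Hdc, 10 of 12 listed genes were tested; Hrh1 had no value. Hrh4, the histamine receptor of blood cells including mast cells and eosinophils, read 0.12, 0.32, 0.51, 0.85 and 0.76 in untreated BALB/c spleens and 2.02, 2.05, 1.88 and 2.70 at 3 h, without overlap. It rose by 1.23 at 1 h, 1.65 at 3 h, 1.47 at 9 h, 1.71 at 24 h and 1.11 at 72 h (limma adjusted p = 0.0011, 4.2e-06, 4e-05, 5.8e-06 and 0.0028). Of all genes, 3.01%, 6.82%, 4.19%, 6.82% and 6.47% were called higher at these times. In C57BL/6 control spleens the Hrh4 difference was 0.10 (limma adjusted p = 0.94) and in the knock-out 1.30 (limma adjusted p = 0.19).

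Hnmt, which methylates and so inactivates histamine, fell by 0.83 at 3 h and by 0.89 at 9 h (limma adjusted p = 0.025 and 0.037); 3.14% and 2.77% of all genes were called lower then. It read 0.86, 1.29, 0.84 and 0.48 at 3 h against 1.19 to 2.42 in untreated spleens, with 1 spleen of 3 h inside that range. Leaving out 1 of the 10 arrays in turn ended the Hnmt call in 4 cases at 3 h and in 6 at 9 h. Aldh7a1, an aldehyde dehydrogenase, fell by 1.11 at 72 h (limma adjusted p = 0.0014), when 4.15% of all genes were called lower. Hrh2, Hrh3, Aoc1 and the granule transporter Slc18a2 were called at no BALB/c time; at 3 h their differences were -0.01, -0.01, 0.02 and -0.01. The median of the 10 genes at 3 h was -0.01 against -0.03 for all genes.

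Of the IgE receptor only Fcer1g could be measured, the signalling chain that other Fc receptors share. Untreated BALB/c spleens ranged from 1.10 to 1.68, and every spleen of 3, 9, 24 and 72 h lay above that range. Of all genes, 7.59%, 4.56%, 6.2% and 7.05% showed that separation. Fcer1g rose by 0.96 at 3 h, 1.41 at 9 h, 1.69 at 24 h and 1.18 at 72 h (limma adjusted p = 0.00026, 7.4e-07, 4e-08 and 4.5e-05). At these times 6.82%, 4.19%, 6.82% and 6.47% of all genes were called higher. In control ODN spleens Fcer1g read 1.43 to 2.32, overlapping with 2.04 to 2.72 in the 3 h CpG spleens. Fcer1g was not called between these groups. In C57BL/6 control mice it was not called, with 2.60 to 2.90 after CpG ODN against 1.80 to 2.86 untreated. The knock-out had Fcer1g called higher, as were 3.45% of all genes. Downstream of the receptor, the kinase Syk and the adaptor Lcp2 were the only calls among the 11 genes tested at 1 h, both higher, against 3.01% of all genes called higher. The adaptor Lat2 and the phosphatase Inpp5d were lower at 3 h, when 3.14% of all genes were called lower. Leaving out 1 of the 10 arrays in turn ended the call of Lcp2 in 7 cases, of Inpp5d in 6, of Syk in 1 and of Lat2 in 0.

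Of 17 basophil markers, 13 were tested in BALB/c mice; Prss34, Cd200r3, Fcer1a and Ms4a2 had no value. At 3 h the chemokine Ccl3 was higher and the integrin Itgb7 lower, 2 of 13 called against 9.96% of all genes, and the median difference was 0.02. Ccl3 was the only call at 1, 9 and 24 h, higher each time, against 3.01%, 4.19% and 6.82% of all genes called higher. Its mean was -3.43 untreated, 0.38 at 1 h, 0.37 at 3 h, -1.60 at 9 h and -2.45 at 24 h. Both C57BL/6 genotypes also had Ccl3 called higher, against 4.98% and 3.45% of all genes. The mean of the 13 markers per array, Ccl3 included, was 0.24 to 0.45 in untreated BALB/c spleens. It was 0.81 to 1.03 at 1 h, 0.52 to 0.68 at 3 h and 0.25 to 0.78 at 24 h. At 72 h 3 were higher and 2 lower, against 10.6% of all genes: Mcpt8, Ms4a3 and Ccl3 rose, by 1.71 for Ms4a3 and 0.80 for Ccl3 (limma adjusted p = 0.013 and 0.031). The cytokine Il4 and the prostaglandin receptor Ptgdr2 fell by 0.96 and 0.99 (limma adjusted p = 0.030 and 0.015), with 4.15% of all genes called lower. With 1 of the 10 arrays left out in turn at 72 h, the call was lost in 5 cases for Ccl3, 4 for Il4, 2 for Ms4a3 and 1 for Ptgdr2; the 3 h call of Itgb7 was lost in 5. The count of 5 ranged from 2 to 8 over the alternatives, with 8 under array weights. Ms4a3 is also a gene of granulocyte precursors, and its 72 h values of 3.43, 3.24 and 2.26 overlapped with the untreated range of 0.55 to 2.39.

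Of 23 mast cell markers, 16 were tested. Ndst2, a heparan sulphate enzyme, was the only call at 3 h and at 9 h, with differences of 1.28 and 1.06; 1 of 16 stands against 9.96% of all genes called at 3 h and 4.19% called higher at 9 h. At 72 h Mcpt1, Hpgds and Gata1 rose, by 1.11, 0.80 and 0.91 (limma adjusted p = 0.022, 0.019 and 0.0041), and the median was 0.35 against 0.03 for all genes. These are 3 of 16, against 6.47% of all genes called higher. Gata1 is also a transcription factor of red cell precursors. Of 9 erythroid markers tested, Gata1 and the erythropoietin receptor Epor were higher at 72 h, with a median of 0.55, and the mean erythroid level per array was 4.05 to 5.19 against 4.07 to 4.42 untreated. Their part in the mast cell marker result was not tested. With 1 of the 10 arrays left out in turn, the 72 h call was lost in 6 cases for Epor, 3 for Hpgds, 2 for Mcpt1 and 0 for Gata1, and the 9 h call of Ndst2 in 2. The mast cell marker count of 3 ranged from 1 to 9 over the alternatives, with 9 under array weights. Mcpt1, a chymase of mucosal mast cells, read 1.51, 1.34, 0.23 and -0.75 at 72 h against -0.94 to -0.16 untreated, so 2 spleens carried most of its difference.

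Kit, Tpsab1 and Mcpt4 passed in no comparison of treated with untreated spleen. Kit, the stem cell factor receptor, differed by 0.11 at 3 h and 0.05 at 72 h, Tpsab1, a tryptase, by -0.08 and 0.32, and the chymase Mcpt4 by 0.18 and 0.68 (limma adjusted p = 0.76 and 0.058 for Mcpt4). Cma1, another chymase, fell by 0.57 at 24 h (limma adjusted p = 0.010), when 1.62% of all genes were called lower. Its call was lost in 1 of 10 cases with an array left out. Of the 16 mast cell markers tested, Hpgds and Ndst2 were called higher at 24 h, against 6.82% of all genes. Gata2, a transcription factor of basophils and mast cells, differed by 0.81 in each C57BL/6 genotype (limma adjusted p = 0.026 in control and 0.043 in knock-out mice) and by -0.11 in BALB/c mice at 3 h. Of all genes, 4.98% were called higher in C57BL/6 control and 3.45% in knock-out mice. Both C57BL/6 calls were lost with a 2-fold minimum and with only the groups compared, the knock-out call also with array weights, and leaving out 1 array in turn ended the call in 4 of 8 cases in control mice (differences 0.61 to 0.98) and in 7 of 8 in the knock-out (0.68 to 0.93).

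**Figure D4:**
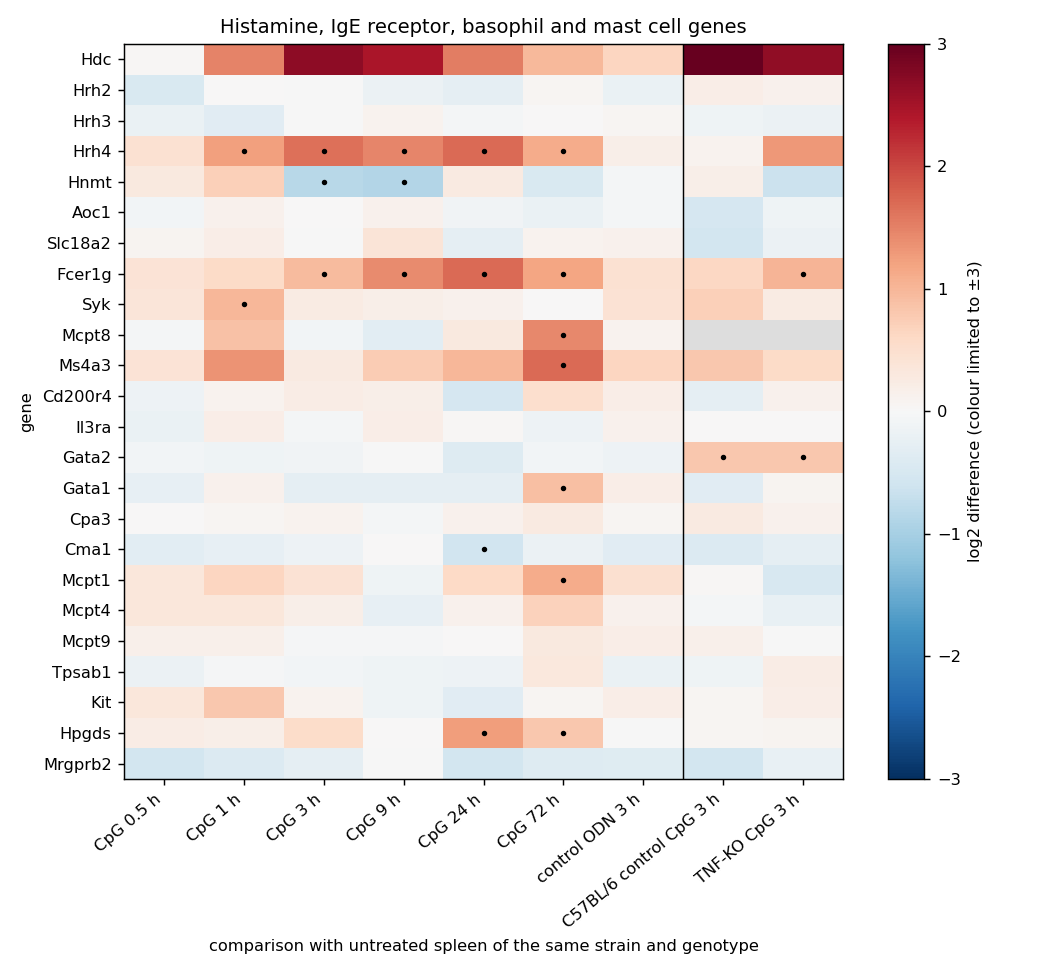
Log2 differences from untreated spleen (colour, limited to ±3) for 24 genes of histamine handling, IgE receptor, basophils and mast cells (rows) in 9 comparisons (columns); dots mark limma adjusted p under 0.05, grey means not tested, and Hdc carries no dots because it was not tested. Hdc and Hrh4 are red from 1 to 72 h in BALB/c spleen, whereas Mcpt8, Ms4a3, Gata1 and Mcpt1 are called at 72 h.

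Of 12 tested cytokines that act on basophils, mast cells or Hdc, 6 were higher at 3 h and none lower, and 1 was higher at 72 h, against 6.82% and 6.47% of all genes called higher. At 3 h Il6 rose by 3.31, Il33 by 1.43 and Kitl, the ligand of Kit, by 1.17 (limma adjusted p = 4.7e-09, 9.2e-05 and 2.2e-05). Il18, an activator of basophils, rose by 1.54 at 3 h and 1.31 at 72 h (limma adjusted p = 3.3e-06 and 0.00018). Il3, a growth factor of basophils, differed by 0.18 at 3 h (limma adjusted p = 0.74).

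Some markers of neutrophils, and of monocytes and macrophages, were also called at the times when Hdc was high. Of 19 neutrophil markers tested, 9 were higher at 1 h, 7 at 3 h, 8 at 9 h, 5 at 24 h and 7 at 72 h, against 3.01%, 6.82%, 4.19%, 6.82% and 6.47% of all genes, and none was lower at these times. The 1 h count was 2 with arrays scaled to the same spread, and the 72 h count was 16 with array weights. Their mean level per array ranged from 1.33 to 2.08 in untreated BALB/c spleens, 2.46 to 2.73 at 3 h, and 1.88 to 3.27 in the control ODN group. With control ODN 3 were called higher, and their median difference was 0.78 against 0.09 for all genes, whose called share is not given here. C57BL/6 control spleens had 8 higher and knock-out spleens 9, against 4.98% and 3.45% of all genes. Of 13 monocyte and macrophage markers tested, 4 were higher at 1 h, 3 at 3 h, 4 at 9 h, 6 at 24 h and 5 at 72 h. Ms4a6d and Spic were among them at each time. Of all genes, 3.01%, 6.82%, 4.19%, 6.82% and 6.47% were called higher at these times. Lower were Cx3cr1 at 3 h, and Cx3cr1 and Mrc1 at 9 h, when 3.14% and 2.77% of all genes were called lower. The median difference of these 13 markers was 0.02 at 3 h, and -0.41 for CpG ODN against control ODN. In C57BL/6 control spleens Ms4a6d and Cd14 were higher and Mrc1 and Vcam1 lower, with a median of -0.48 against -0.01 for all genes. There 4.98% of all genes were called higher, and the share called lower is not given here. Knock-out spleens had 3 of these markers higher, against 3.45% of all genes, and none lower, with a median of 0.20. Their mean level per array ranged from 1.74 to 2.39 in untreated BALB/c spleens and from 2.67 to 2.80 at 3 h. The part of these cells' markers in the Hdc result was not tested.

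Eosinophil markers gave 1 call of 8 at 1 h and at 24 h, Ear6 in both cases, and none at 3, 9 and 72 h; 3.01% and 6.82% of all genes were called higher at 1 and 24 h. The 1 h call of Ear6 was lost in 4 of 10 cases with 1 array left out in turn. Stomach markers, included because gastric cells express Hdc strongly, gave no call among the 8 to 10 genes tested in any of these comparisons, and their mean level ranged from 0.05 to 0.74 in untreated BALB/c spleens and from 0.02 to 0.70 at 3 h.

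Among 5677 genes with a range of at least 1 over the 12 group means, the 10 most like Hdc by Pearson r were Slc15a3 (0.963), Socs1 (0.962), Slc2a6 (0.959), Chil1 (0.956), Mmp8 (0.954), Adar, Tor1aip1 and Zfp82 (0.953 each), and Stx11 and Irf9 (0.949 each). Socs1 is a feedback inhibitor of cytokine signalling, Irf9 a subunit of the interferon-activated factor, Adar an RNA-editing enzyme, and Mmp8 the collagenase of neutrophil granules. Slc15a3, a peptide and histidine transporter, read 2.36, 2.84, 2.54 and 2.33 at 3 h against 0.16 to 0.85 untreated, without overlap, and differed by 2.14 at 3 h, 1.63 at 9 h and 0.54 at 72 h.

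Mmp8 differed by 3.15 at 3 h and by 2.08 after control ODN, where Hdc differed by 0.65 and Socs1 by -0.13. Mcpt8 was most like Cited4 (0.919), Tmem200a (0.866), Pidd1 (0.853), Rpa2 (0.848) and Rgs17 (0.847), and Cited4 differed by -0.01 at 3 h and 1.54 at 72 h. Cpa3 was most like Ppid (0.915), Dnajc25 (0.899), Kbtbd8 (0.861), Ndc1 (0.856) and Gemin6 (0.854). Both likenesses used the 12 group means, of which some of Mcpt8 rested on 1 or 2 arrays. Those of Cpa3 spanned only 0.21 to 0.56.

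**Figure D5:**
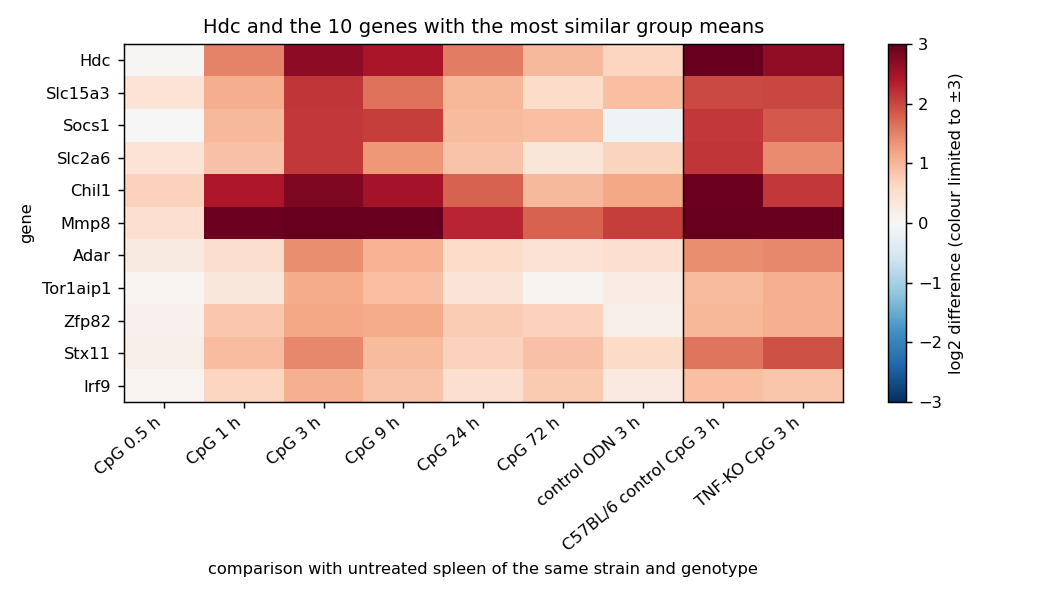
Log2 differences from untreated spleen (colour, limited to ±3) for Hdc and the 10 genes with the most similar group means (rows) in 9 comparisons (columns). The genes were chosen for this likeness, so no test is marked. In the BALB/c time course Hdc and Socs1 are near 0 at 0.5 h and strongest at 3 and 9 h. Over all 9 comparisons Hdc has its largest difference in C57BL/6 control mice (3.35). Mmp8 is also raised by control ODN (2.08).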

How the data were processed

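Spleen RNA was labelled with Cy5 and reference RNA with Cy3 on every array, per the labels. Values are log2 ratios deposited by the authors, who, per the series' design text, subtracted background, removed flagged spots and spots with both signals under 100, and applied lowess within each array with BRB ArrayTools; no genome build is named. Of 36607 probes, 26926 had 1 gene symbol in the platform annotation, 203 several and 9478 none. Each array was centred on its median, 1 probe per gene was kept (the one with most values), and genes with a value on over 70% of the arrays of a fit were tested with limma 3.58.1 in R 4.3.3 (group means, empirical Bayes, Benjamini-Hochberg over all genes). BALB/c arrays (34), C57BL/6 arrays (16) and all 50 arrays, for differences between strains, were fitted apart. Correlations used 100000 permutations within groups, and fewer where single arrays were left out.

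The code was tested on simulated data: 81.0% of genes changed by a log2 of 1 and 98.0% of those changed by 2 were called among 15264 genes for the 72 h comparison, and 65.0% and 99.0% among 14951 genes for the C57BL/6 control comparison. The series' text states 4 independent experiments per time point; where nothing shows separate animals, p-values measure only the spread between these samples. Genes and lists were chosen with earlier results of these data known. Text names the 5 genes in every comparison, list members by smallest p plus defining markers, and the genes with the highest r to each member. The number of arrays limits the precision.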

Additional observations from a re-analysis of the deposited data

Results flagged for a closer look

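Over 36 groups of 4 to 6 arrays checked for a value far from the others, 2 were found, both for Hdc; chance alone gives about 1 in 20 groups. TNF knock-out CpG replicate 4 read 2.40, below the other 3 spleens of its group (gap over range 0.838). Untreated BALB/c replicate 2 read 1.33, above the other 5 (gap over range 0.681).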

How the results depend on the processing

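Leaving out single arrays moved no Hdc difference across 0 except at 0.5 h (-0.20 to 0.24) and for untreated knock-out minus control (-0.29 to 0.11). Within array runs, Hdc differed by 0.66 at 1 h (run 2), by 3.40 (run 6) and 0.81 (run 11) in the knock-out, by -0.63 between untreated genotypes (run 6) and by 0.29 between the genotypes' responses (run 6, reversed); at 72 h it was 0.32 against control ODN arrays of the same run, a comparison chosen after seeing the data. The cause was not tested. Of Mcpt8 and Cpa3, 0 were called at 1 h but 1 with array weights or only the groups compared; at 72 h 1 was called but 2 with array weights. In the strain response 0 to 1 was called over the leave-one-out fits, and r of Hdc with Cpa3 ranged from 0.213 to 0.381. That r passed (adjusted permutation p = 0.032, 0.042 and 0.028) without 0.5 h replicates 1, 3 or 4. These p-values came from fewer permutations than the main ones and are less precise. Over 3 other settings, among them the mean of both Cpa3 probes, it ranged from 0.128 to 0.335 and did not pass (adjusted permutation p = 0.068 to 0.49). Mcpt8 could not be tested among genes with a value on every array. Replicate numbers did not pair the samples (same-number median correlation 0.0441 in BALB/c and 0.0977 in C57BL/6 arrays); with the replicate number as a block Mcpt8 at 72 h was 1.44 (limma adjusted p = 0.0012), Hdc at 3 h 2.56, and the 72 h basophil count 2 rather than 5.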
